A study of Mus musculus with 24 samples.

Results

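The genes described here encode the machinery that takes glucose into brain cells, breaks it down to pyruvate and passes pyruvate on to lactate or to the mitochondrial pyruvate dehydrogenase complex. The 35 genes were listed by their place in this pathway. Of these, 31 had a probe set that the array annotation assigned to that gene alone, and 30 passed the filter on low mean level and were tested, out of 13830 features (11636 annotated genes and probe sets without a gene name). No single-gene probe set was listed for Gpi1 (glucose-6-phosphate isomerase), Eno1 (an enolase) or Mpc2 (a subunit of the mitochondrial pyruvate carrier). Gapdh, the glyceraldehyde-3-phosphate dehydrogenase, had only array control probe sets and probe sets shared by several genes. Slc16a3, a lactate exporter, averaged 3.94 on the log2 scale, below the filter of 4.07, and was not tested.

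The arrays came from the right cerebral hemispheres of 24 female mice of the strain labelled NMR-1, 8 weeks old when the experiment began, 1 array per mouse. For 2 weeks, 6 mice each received McDonald's fast food, cooked cafeteria meals, the vegetables, fruit and yogurt that captive chimpanzees are given, or the mouse pellets on which all of them had been raised. Fast food and cafeteria meals are the human diets, and pellets are the reference. Extracted RNA was processed in 2 batches, each with 3 mice of every diet. A hemisphere mixes neurons, glia and vessels, so that fewer cells of a type and less RNA per cell cannot be told apart. Neuron, astrocyte and oligodendrocyte markers were well above the filter. As means over the 24 arrays, the liver markers Fgb, Ttc36 and Cyp2e1 lay between 3.13 and 3.83, with Alb at 4.11 and Apoa1 at 4.59. The average of Alb and Apoa1 differed between arrays, from 3.97 to 5.76 with a median of 4.19. It was highest in pellet batch 2 replicate 1, followed by chimpanzee batch 1 replicate 1 at 5.38.

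Glucose is the main fuel of the adult brain. It crosses the blood-brain barrier through the transporter encoded by Slc2a1 and enters neurons mainly through the one encoded by Slc2a3. Hexokinase traps it, phosphofructokinase sets much of the pace of glycolysis, and the resulting pyruvate is either reduced to lactate, which monocarboxylate transporters move between cells, or carried into mitochondria and oxidised by the pyruvate dehydrogenase complex, which the Pdk kinases switch off. Many of these genes are known targets of hypoxia-inducible factor, a transcription factor that binds the core sequence ACGTG.

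The 250 bases before the first listed transcription start are shown for the 4 genes that the results turn on. These are Slc2a1 and Pfkfb3 for the comparisons with pellets and Dld and Slc16a1 for the comparison of batches. The sequences are from RefSeq on build GRCm38.p6, written 5′ to 3′ on the gene's strand, with ACGTG on either strand in capitals. The windows are chr4:119108495-119108744 on the plus strand for Slc2a1, chr2:11553930-11554179 on the minus strand for Pfkfb3, chr12:31351472-31351721 on the minus strand for Dld and chr3:104638414-104638663 on the plus strand for Slc16a1.
Slc2a1: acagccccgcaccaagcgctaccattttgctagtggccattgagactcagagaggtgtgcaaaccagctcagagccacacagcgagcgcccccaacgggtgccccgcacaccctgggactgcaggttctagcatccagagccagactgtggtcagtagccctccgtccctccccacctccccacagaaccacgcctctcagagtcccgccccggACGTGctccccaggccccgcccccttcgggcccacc
Pfkfb3: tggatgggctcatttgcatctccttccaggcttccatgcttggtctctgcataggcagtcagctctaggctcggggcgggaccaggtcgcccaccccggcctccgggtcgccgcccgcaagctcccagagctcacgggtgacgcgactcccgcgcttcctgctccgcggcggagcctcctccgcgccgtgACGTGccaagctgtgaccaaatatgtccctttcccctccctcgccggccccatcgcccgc
Dld: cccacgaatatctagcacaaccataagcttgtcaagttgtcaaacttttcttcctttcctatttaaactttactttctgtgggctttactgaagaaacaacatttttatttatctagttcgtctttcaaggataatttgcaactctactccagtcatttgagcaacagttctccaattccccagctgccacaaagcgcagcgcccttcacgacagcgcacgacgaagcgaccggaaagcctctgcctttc
Slc16a1: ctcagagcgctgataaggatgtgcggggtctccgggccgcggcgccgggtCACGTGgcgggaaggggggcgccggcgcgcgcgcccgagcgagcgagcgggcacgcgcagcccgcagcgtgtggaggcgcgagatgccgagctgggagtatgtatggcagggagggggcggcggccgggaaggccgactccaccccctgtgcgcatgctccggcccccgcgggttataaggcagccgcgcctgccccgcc
In the bases shown, Slc2a1 and Pfkfb3 had 1 match each and Dld had none. The CACGTG of Slc16a1 reads as the core on both strands and counted as 2. Another listed start of Pfkfb3, with its window at chr2:11502041-11502340, had 2 matches before it. Windows of 300 bases, 250 before and 50 after a start, were found for 32 of the 35 genes, and 23 of their 50 windows (46%) held the core on either strand, against 6447 of all 32851 windows (19.6%). The first window of Ldha, a lactate dehydrogenase, held 5 matches. A match describes the sequence only. It shows neither binding nor a response to diet.

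All levels are the authors' log2 values after array normalisation, and a difference of 1 between groups is a doubling. Levels of different probe sets are not comparable with one another, so each gene was compared only with itself. None of the 30 genes differed among the 4 diets (limma F test with batch in the model, Benjamini-Hochberg over all 13830 features, adjusted p below 0.05), where 0.0434% of all features (6) passed. At an unadjusted p below 0.05, 2 of the 30 passed in limma, Pfkfb3 (limma unadjusted p = 0.019) and Slc2a1 (limma unadjusted p = 0.037), against 5.34% of all features.

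None of the 30 genes passed between fast food and pellets (0.0362% of all features passed), between cafeteria meals and pellets (0% of features), or between the chimpanzee diet and pellets (0.00723% of features). At an unadjusted p below 0.05 there were 3 genes (10%) for fast food against 21.5% of all features, 1 gene (3.33%) for the cafeteria diet against 5.47%, and 3 genes (10%) for the chimpanzee diet against 9.72%. None of these shares stood above the background by more than a fraction of a percent. The median of the 30 log2 differences from pellets was 0.28 for fast food, 0.20 for cafeteria meals and 0.29 for the chimpanzee diet, beside 0.16, 0.12 and 0.14 over all features. The estimate was above 0 for 28, 30 and 29 of the 30 genes. These 3 comparisons share the same pellet arrays. Without pellet batch 2 replicate 1, an array that stood apart from the rest, the medians were 0.05, -0.03 and 0.05, beside 0.05, 0.01 and 0.02 over all features, and the estimate was above 0 for 20, 11 and 25 genes. None was called.

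The size and sign of these medians depended on the batch. Within labelled batch 1 the median differences from pellets were -0.39 for fast food, -0.45 for cafeteria and -0.37 for chimpanzee. Within labelled batch 2 they came to 0.94, 0.84 and 0.89. Over all features the corresponding medians were -0.08, -0.14 and -0.13 in batch 1 and 0.44, 0.39 and 0.44 in batch 2. Fitted alone, batch 2 gave 26 genes past the threshold against pellets for each of the 3 diets, where 58.7%, 50.4% and 53.1% of all features passed, and batch 1 gave at most 1 gene. This was Dld, called lower on the cafeteria diet in batch 1 (log2 difference -0.86, limma adjusted p = 0.022) and higher in batch 2 (1.72, limma adjusted p = 0.012). In batch 1, 2.94% of all features were called for cafeteria, 0.0940% for fast food and 0.145% for the chimpanzee diet.

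**Figure D1:**
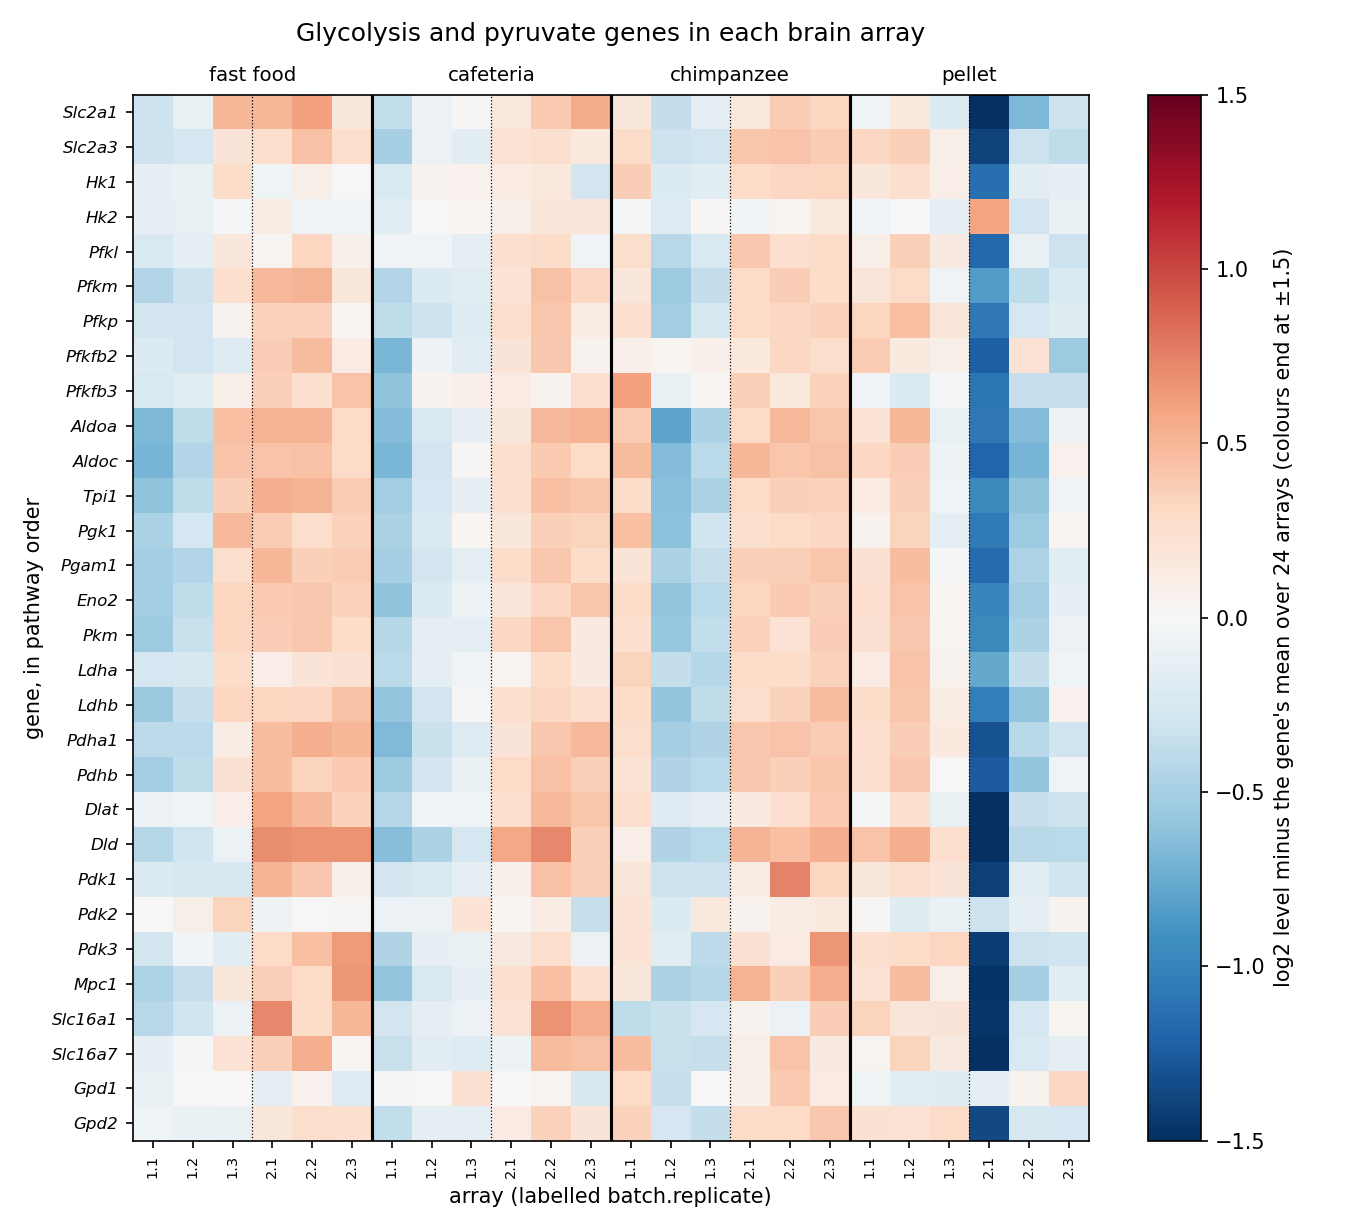
Colour shows the log2 level of each of the 30 genes in each of the 24 arrays minus that gene's mean, with arrays grouped by diet and, within a diet, by labelled batch and replicate. Most columns are a single colour from top to bottom, and pellet batch 2 replicate 1 is the darkest blue column, with Hk2 above its mean.

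The map of levels by array shows that most of these genes moved together from array to array, whatever the diet. In batch 2 arrays of the fast food, cafeteria and chimpanzee diets, 25 to 30 of the 30 genes lay above their own mean. In batch 1 arrays of these diets the count ranged between 0 and 28 with a median of 3. On pellets the order was turned round, with 18 to 26 genes above their mean in the arrays labelled batch 1 and 1 to 6 in those labelled batch 2. Pellet batch 2 replicate 1 stood apart, with a median correlation of 0.821 with the other arrays, against at least 0.968 for every other array.

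Of the glucose transporters, Slc2a1 had the smallest p between fast food and pellets among genes with the same sign in both batches. Its lowest, median and highest log2 levels were 8.38, 9.03 and 9.31 on fast food, 8.33, 8.78 and 9.25 on cafeteria meals, 8.34, 8.86 and 9.08 on the chimpanzee diet, and 7.18, 8.43 and 8.85 on pellets. The pellet arrays gave 8.65, 8.85 and 8.49 in labelled batch 1 and 7.18, 8.01 and 8.38 with the batch 2 label. The 2 lowest of all 24 levels were thus pellet arrays, but the diets overlapped. The log2 difference was 0.66 (SE 0.23, n = 6 each), with an unadjusted p of 0.0081 and an adjusted p of 0.23 in limma, and it was 0.06 within batch 1 and 1.27 within batch 2. Without pellet batch 2 replicate 1 it was 0.42. The other probe sets of Slc2a1 gave 0.62 and 0.44. For Slc2a3, the neuronal transporter, fast food averaged 9.46 ± 0.31 and pellets 9.14 ± 0.65 (SD, n = 6 each), a difference of 0.32 with an SE of 0.23, or 0.06 without that pellet array.

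The hexokinases, which trap glucose in the cell, lay at opposite ends in the pellet array that stood apart. Hk1, the main brain hexokinase, averaged 9.24 ± 0.15 on fast food, 9.21 ± 0.19 on cafeteria, 9.38 ± 0.27 on chimpanzee and 9.07 ± 0.51 on pellets. Hk2, the insulin-responsive muscle form, averaged 4.85 ± 0.09, 4.95 ± 0.13, 4.89 ± 0.12 and 4.90 ± 0.31 on the same diets (SD, n = 6 each). In pellet batch 2 replicate 1, Hk1 was at 8.10, the lowest of its 24 levels, and Hk2 at 5.49, the highest of its own.

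The phosphofructokinase subunits Pfkl, Pfkm and Pfkp gave differences between fast food and pellets of 0.21, 0.28 and 0.13, none past the threshold. Without pellet batch 2 replicate 1 these were -0.003, 0.11 and -0.10. Pfkfb2 and Pfkfb3 make and remove fructose 2,6-bisphosphate, which activates phosphofructokinase. Pfkfb3 had the smallest p of the 30 genes in any comparison with pellets. Its lowest, median and highest levels were 4.84, 5.23 and 5.49 on fast food, 4.46, 5.13 and 5.32 on cafeteria, 4.95, 5.32 and 5.68 on the chimpanzee diet, and 3.98, 4.79 and 5.05 on pellets. Of the chimpanzee diet arrays, 1 lay within the pellet range and the other 5 above it. The log2 difference between the chimpanzee diet and pellets was 0.58 (SE 0.18, n = 6 each), with an unadjusted p of 0.0032 and an adjusted p of 0.45 in limma. It was 0.27 within batch 1 and 0.89 within batch 2, and 0.41 without pellet batch 2 replicate 1. The second probe set of Pfkfb3, close to the filter on low level, gave a difference between fast food and pellets of -0.07, where the one used gave 0.46, or 0.29 without that array.

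**Figure D2:**
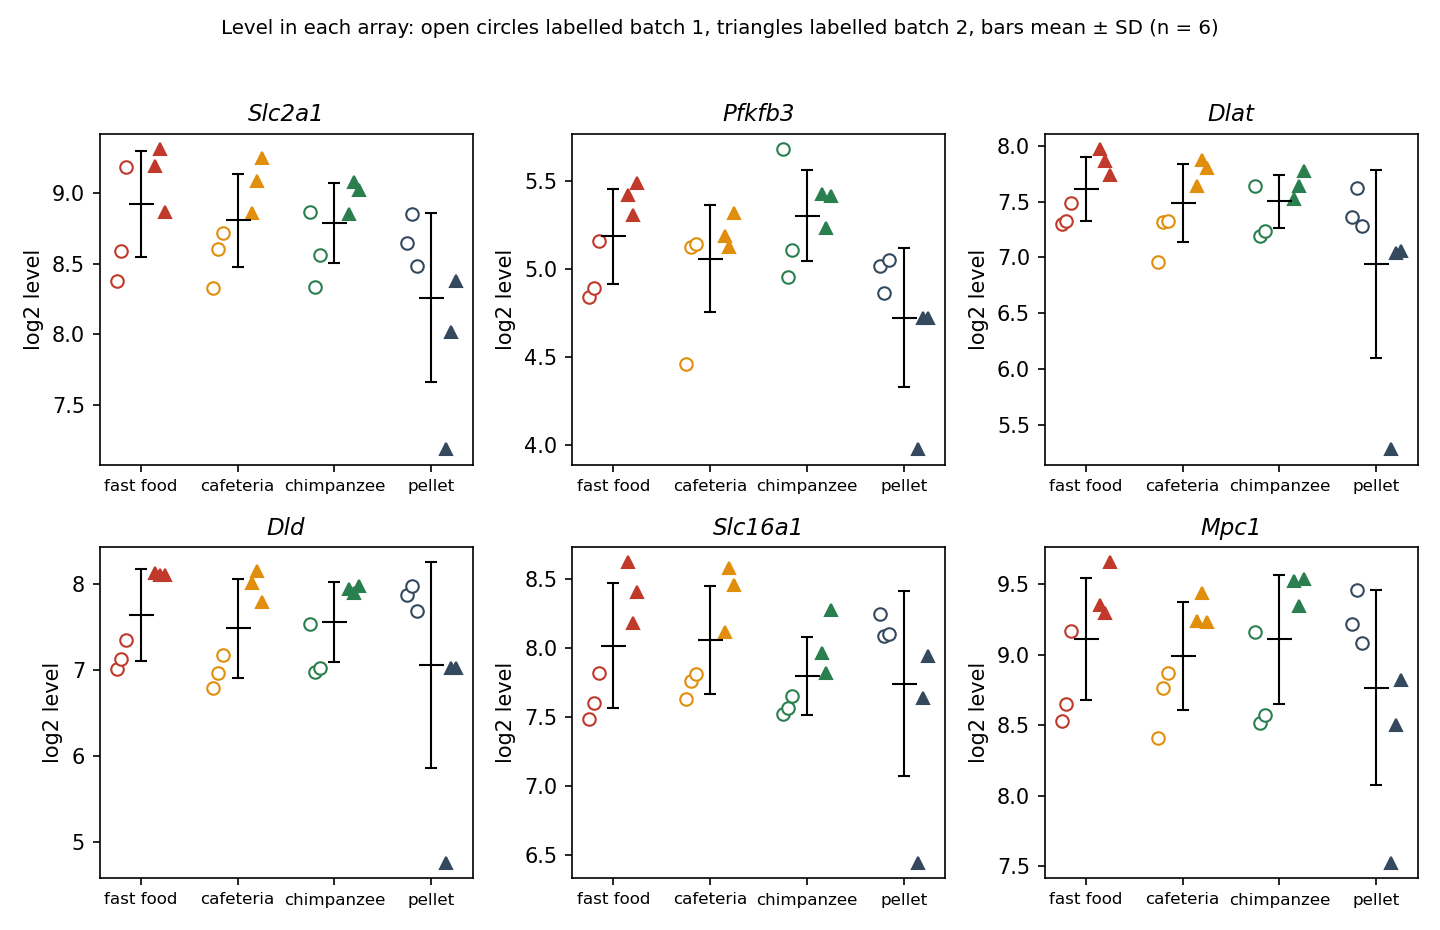
Each point is the log2 level of 1 array, open circles marking labelled batch 1 and triangles labelled batch 2, and the bars give mean ± SD over the 6 arrays of a diet. In every panel the pellet triangles lie below the pellet circles, while most circles of the other diets lie below their triangles.

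The enzymes of the middle and lower part of glycolysis showed the same small positive estimates and no call. Aldoa and Aldoc, the muscle-type and brain-type aldolases, differed between fast food and pellets by 0.32 and 0.28, and Tpi1, the triose phosphate isomerase, by 0.34. For Pgk1, Pgam1, Eno2 and Pkm, which act in the later steps to pyruvate, the differences were 0.34, 0.28, 0.25 and 0.23. The steps of Pgk1 and Pkm yield ATP. Ldha and Ldhb, whose subunits assemble into lactate dehydrogenase, differed by 0.15 and 0.21. The standard errors of these 9 estimates were between 0.18 and 0.27. Without pellet batch 2 replicate 1 the 9 estimates lay between -0.005 (Ldhb) and 0.15 (Pgk1). The control probe set at the 3′ end of Gapdh averaged 12.2 ± 0.50 on fast food, 12.1 ± 0.39 on cafeteria, 12.2 ± 0.54 on chimpanzee and 11.9 ± 0.62 on pellets.

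In the pyruvate dehydrogenase complex, Pdha1 and Pdhb encode the subunits of the decarboxylase, Dlat the acetyl carrier and Dld the dihydrolipoamide dehydrogenase. Dlat had the largest estimate of the 30 genes between fast food and pellets, 0.68 (SE 0.27, limma unadjusted p = 0.020), but this was -0.05 within batch 1 and 1.40 within batch 2, and 0.32 without pellet batch 2 replicate 1, then below the 0.42 of Slc2a1. Fast food arrays of Dlat gave 7.30, 7.33 and 7.49 in batch 1 and 7.97, 7.87 and 7.73 in batch 2, while pellet arrays had 7.36, 7.62 and 7.28 under the batch 1 label and 5.28, 7.04 and 7.06 under the batch 2 label. The batch 1 arrays of both diets overlapped and the batch 2 arrays did not. For Dld, Pdha1 and Pdhb the differences were 0.58, 0.35 and 0.29, and without that array 0.07, 0.09 and 0.05.

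The kinases Pdk1, Pdk2 and Pdk3, which inactivate that complex, gave differences between fast food and pellets of 0.26, 0.17 and 0.35. Mpc1, the carrier subunit that brings pyruvate into mitochondria, gave 0.34. The lactate and ketone transporters Slc16a1 and Slc16a7 gave 0.27 and 0.43. Gpd1 and Gpd2, the cytosolic and mitochondrial enzymes of the glycerol phosphate shuttle that hands electrons from NADH to mitochondria, gave -0.04 and 0.25. None of these passed the threshold, and without pellet batch 2 replicate 1 these 8 estimates lay between -0.06 (Gpd1) and 0.13 (Pdk2). Slc16a3, below the filter, averaged 3.76 ± 0.17 on fast food, 3.85 ± 0.18 on cafeteria, 3.83 ± 0.13 on chimpanzee and 4.31 ± 0.64 on pellets, with a highest pellet level of 5.40.

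The study set the human diets against the chimpanzee diet, and here no gene passed either. None of the 30 genes was called between human and chimpanzee diets, between fast food and cafeteria, between fast food and chimpanzee, or between cafeteria and chimpanzee, and 0% of all features were called in each. At an unadjusted p below 0.05 none of the 30 passed in any of these 4 comparisons, where 2%, 0.651%, 1.81% and 1.42% of all features did. The median difference of the 30 genes was -0.03 between human and chimpanzee diets, 0.09 between fast food and cafeteria, 0.00 between fast food and chimpanzee and -0.08 between cafeteria and chimpanzee, beside 0.01, 0.05, 0.03 and -0.01 over all features.

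A fit to the 18 arrays of these 3 diets alone, in which the wide spread of the pellet arrays does not enter, set tighter limits. It was chosen after the data had been seen. Again none of the 30 genes was called in any of the 4 comparisons, where 7, 0, 3 and 2 of all features were called. The 95% intervals of all 30 genes lay between -0.41 and 0.43 for human diets against the chimpanzee diet, between -0.29 and 0.45 for fast food against cafeteria and between -0.41 and 0.43 for fast food against the chimpanzee diet. For cafeteria against the chimpanzee diet they lay between -0.50 and 0.48. The intervals lay within ±0.5 for all 30 genes in the first 3 comparisons and for 29 in the last. The standard errors were between 0.061 and 0.17.

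**Figure D3:**
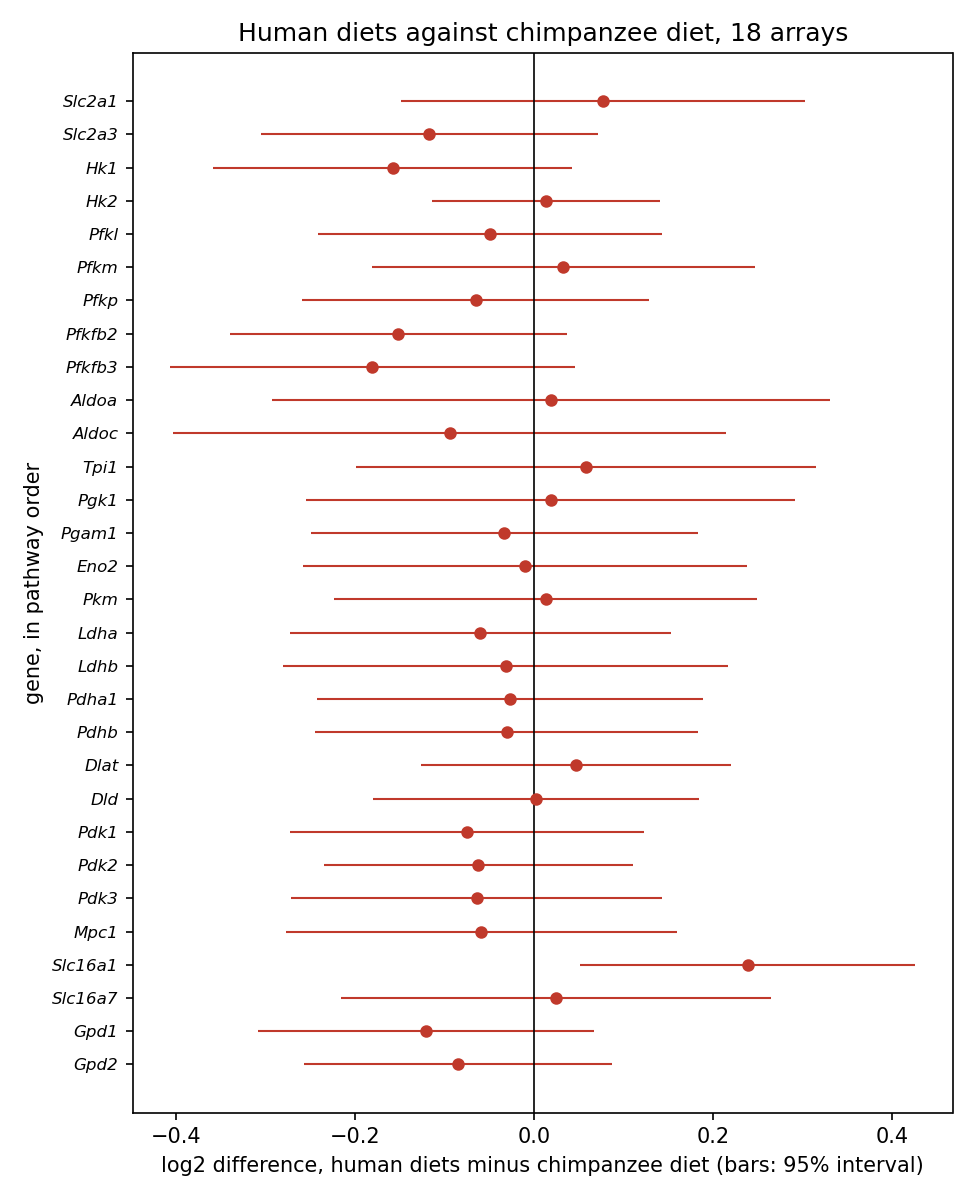
Points are log2 differences of human diets (12 arrays) minus chimpanzee diet (6 arrays) in the fit to 18 arrays, with 95% intervals as bars and genes in pathway order. All intervals but that of Slc16a1 include 0.

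The plot of these intervals has a single gene whose interval leaves out 0. Slc16a1, the monocarboxylate transporter of vessels and glia that carries lactate, pyruvate and ketone bodies, had lowest, median and highest levels of 7.49, 8.00 and 8.62 on fast food, 7.63, 7.96 and 8.57 on cafeteria, and 7.52, 7.73 and 8.27 on the chimpanzee diet. The diets overlapped. Within batch 1 the means were 7.63 on fast food, 7.73 on cafeteria and 7.58 on chimpanzee, and within batch 2 they were 8.40, 8.38 and 8.02. The difference between human and chimpanzee diets was 0.24 (SE 0.090, 95% interval 0.05 to 0.43), with an unadjusted p of 0.015 and an adjusted p of 0.58 in limma. At an unadjusted p below 0.05 in this limma fit, 1 of 30 genes passed (3.33%), against 6.49% of all features, which is below the background.

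More genes were called between batches than between diets. In the 9 batch 1 arrays and 9 batch 2 arrays of the fast food, cafeteria and chimpanzee diets, 26 of the 30 genes were called, all lower in batch 1, where 40.3% of all features were called lower and 9.46% higher (limma with diet in the model). The median log2 difference of the 30 genes, batch 1 minus batch 2, was -0.48, beside -0.14 over all features. That background covers features of every mean level above the filter, and 7608 of the 13830 passed a stricter floor of 6. Most of the 30 genes lay above 6, so genes and background were not matched for level. The part of level in these counts was not tested. The mean was lower in batch 1 on each of the 3 diets for 27 of the 30. For 5 genes, Dld, Slc16a1, Mpc1, Pdhb and Pgam1, the batches did not overlap at all, against 5.08% of all features.

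Among the 8 genes with the smallest p, Dld, Slc16a1, Mpc1 and Pdhb act at the pyruvate end of the pathway and did not overlap between batches. Dld had lowest, median and highest levels of 6.79, 7.02 and 7.53 in batch 1 and 7.79, 8.01 and 8.15 in batch 2, a difference of -0.91 (SE 0.083, limma adjusted p = 1.4e-07). Slc16a1 had 7.49, 7.63 and 7.82 in batch 1 and 7.82, 8.27 and 8.62 in batch 2, a difference of -0.62 (SE 0.085, limma adjusted p = 1.3e-05). Mpc1 had 8.41, 8.65 and 9.17 in batch 1 and 9.23, 9.35 and 9.66 in batch 2, a difference of -0.66 (SE 0.099, limma adjusted p = 2.8e-05). In Dld, Slc16a1 and Mpc1 the highest batch 1 array lay below the lowest batch 2 array, for Slc16a1 by less than 0.01.

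Both subunits of the pyruvate decarboxylase were among the 8. Pdha1 had 8.79, 9.06 and 9.71 in batch 1 and 9.64, 9.88 and 10.00 in batch 2, a difference of -0.71 (SE 0.098). Pdhb had 9.02, 9.18 and 9.79 in batch 1 and 9.86, 9.96 and 10.03 in batch 2, a difference of -0.63 (SE 0.097). Pdha1 overlapped between batches and Pdhb did not. Pdk1, which inactivates this enzyme, ran the same way, with 6.77, 6.86 and 7.28 in batch 1 and 7.17, 7.45 and 7.84 in batch 2, a difference of -0.53 (SE 0.090). In glycolysis proper, Pgam1, the phosphoglycerate mutase, had 9.86, 10.03 and 10.64 in batch 1 and 10.65, 10.73 and 10.88 in batch 2, a difference of -0.61 (SE 0.098). Pfkm, the muscle-type phosphofructokinase, had 9.65, 9.88 and 10.4 in batch 1 and 10.4, 10.5 and 10.7 in batch 2, a difference of -0.57 (SE 0.097). The limma adjusted p of these 5 genes was at most 9.7e-05.

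The remaining 18 called genes had differences between -0.28 (Pfkfb3) and -0.69 (Aldoa). The 4 that were not called were Hk2 at -0.13 (limma adjusted p = 0.058), Hk1 at -0.11, Pdk2 at 0.07 and Gpd1 at -0.01. Of the 60 probe sets of these genes above the filter, 55 were lower in batch 1. Among the 18 genes with more than 1 such probe set, 4 had probe sets of both signs, Pfkfb2, Pfkfb3, Slc16a7 and Gpd1. The Gapdh control probe set averaged 11.8 ± 0.44 in batch 1 and 12.5 ± 0.08 in batch 2 (SD, n = 9 each).

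**Figure D4:**
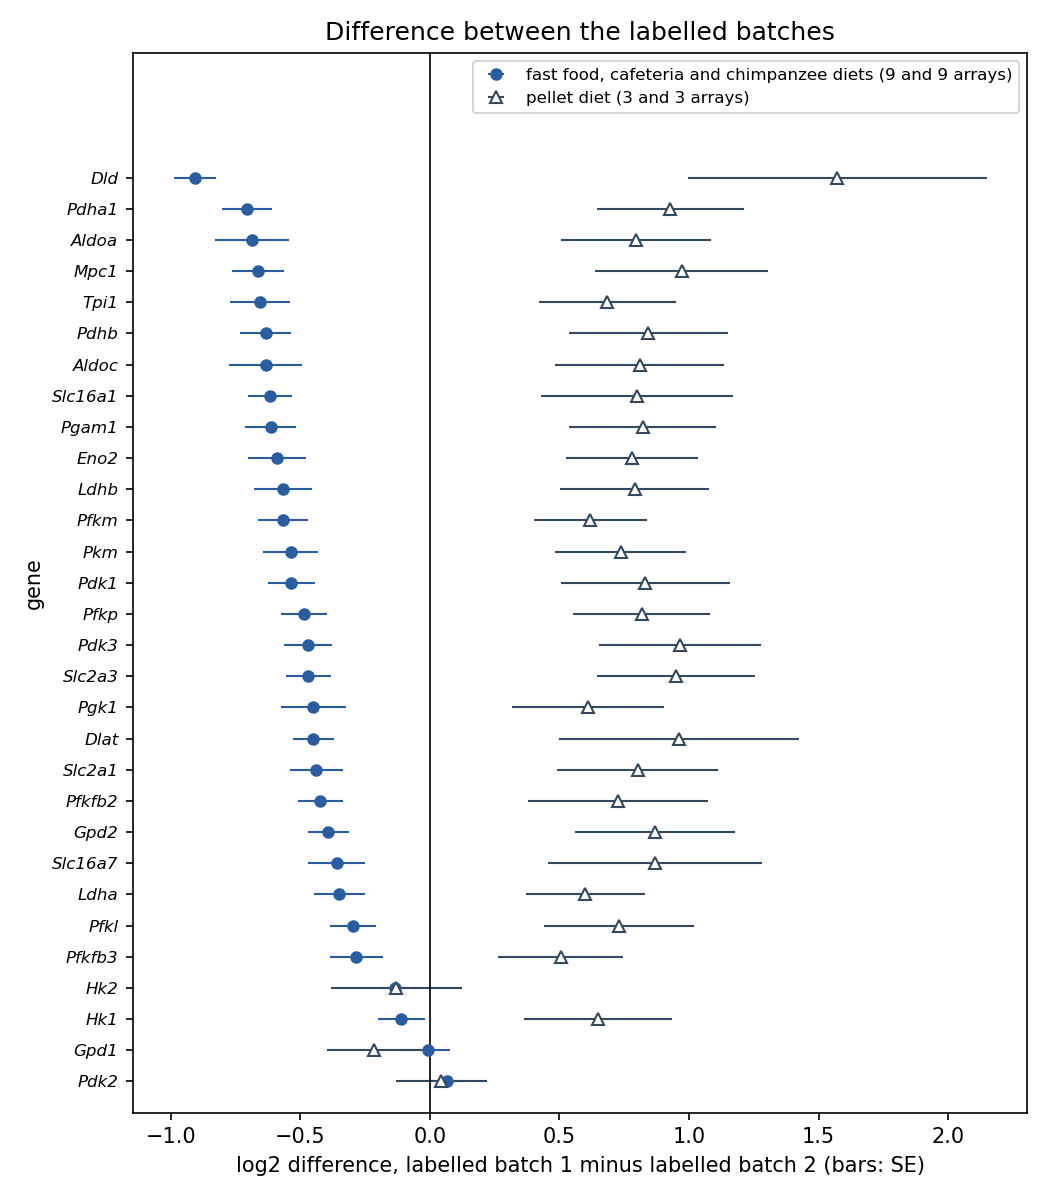
Points are log2 differences between labelled batch 1 and labelled batch 2, with bars of 1 SE, for the 18 arrays of fast food, cafeteria and chimpanzee diets (filled circles) and the 6 pellet arrays (open triangles). The circles lie left of 0 for 29 of the 30 genes and the triangles right of 0 for 28.

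The pellet mice ran against the other diets, as the plot of batch differences shows. On pellets, 28 of the 30 genes were higher in the arrays labelled batch 1, with a median difference of 0.80, beside 0.42 over all features. Without pellet batch 2 replicate 1 the median was 0.47, beside 0.25, and 28 were again higher. With 3 arrays against 3, none was called, and 0% of all features were called. The labelled batches of pellet mice did not overlap for 22 of the 30 genes, against 58.8% of all features. For Dld the pellet arrays gave 7.87, 7.97 and 7.68 with the batch 1 label and 4.76, 7.02 and 7.02 with the batch 2 label.

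The interaction of diet and batch was called for 27 of the 30 genes, against 50.7% of all features. A direct contrast of the pellet batch difference with that on the remaining diets was called for 27 of the 30, higher in each, against 55.6% of all features that were called higher. The gap was 2.48 (SE 0.41) for Dld and 1.63 (SE 0.25) for Pdha1, both with a limma adjusted p of at most 1.0e-04, and it was 0.01 for Hk2, -0.02 for Pdk2 and -0.21 for Gpd1, the 3 genes without a call. When pellet arrays swapped their batch labels, no gene had a called interaction, and 3 genes were called between fast food and pellets. These were Slc2a1 (0.66, limma adjusted p = 0.033), Dlat (0.68, 0.042) and Pfkfb3 (0.46, 0.044), where 12.3% of all features were called. Slc2a1 and Dlat were called also without pellet batch 2 replicate 1 under swapped labels, at 0.49 and 0.39, where 5.16% of all features were called. Whether the labels of the pellet arrays are crossed was not tested.

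Array-wide measures moved with these genes. The SD of all log2 values of an array was between 1.81 and 2.02 in batch 1 and between 2.01 and 2.06 in batch 2 on the 3 diets, and on pellets between 1.95 and 2.04 with the batch 1 label and 1.58 and 1.85 with the batch 2 label. The control signal for 18S ribosomal RNA was between 5.87 and 6.58 in batch 1 and 4.88 and 5.15 in batch 2 on the 3 diets, and on pellets between 4.96 and 5.51 with the batch 1 label and 5.92 and 6.42 with the batch 2 label. The difference of the 3′ and 5′ Actb control probe sets, a measure of RNA integrity, averaged 0.50 in both batches of the 3 diets and 0.48 in both labelled batches of pellets. For Gapdh the same measure averaged 0.04 in batch 1 and 0.01 in batch 2 on the 3 diets. On pellets it averaged 0.02 with the batch 1 label and 0.07 with the batch 2 label. The Gapdh values overlapped between batches in both sets. The part of these measures in the differences between batches was not tested.

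**Figure D5:**
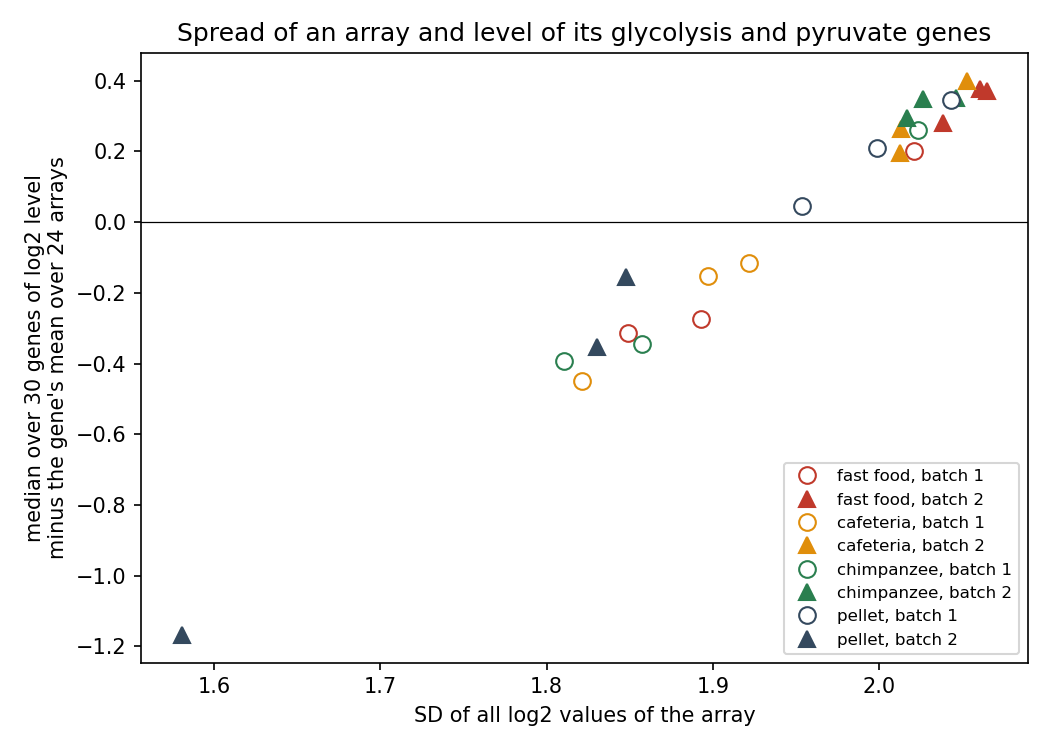
Each point is 1 array, with the SD of all its log2 values on the x axis and, on the y axis, the median over the 30 genes of the log2 level minus the gene's mean over 24 arrays. The medians run between -1.17 in pellet batch 2 replicate 1, which has the smallest SD, and 0.40 in a batch 2 array of the cafeteria diet.

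In the plot of spread against level, 2 batch 1 arrays, chimpanzee replicate 1 and fast food replicate 3, lie among the batch 2 arrays. Without these 2 arrays, 28 genes were called lower in batch 1 and the median difference was -0.59, where 49.4% of all features were called lower and 10.7% higher with a median of -0.18. With the SD of the array as a covariate, 2 genes were called, Dld (-0.55, limma adjusted p = 0.0012) and Slc16a1 (-0.49, limma adjusted p = 0.033), where 3.38% of all features were called lower and 3.62% higher, and the median of the 30 genes was -0.02. Both fits were chosen after the data had been seen. After the arrays were quantile normalised again, 10 genes were called lower and 3 higher, these being Hk1 (0.30), Pdk2 (0.28) and Gpd1 (0.18), and the median was -0.09. Of all features 17.7% were then called lower and 24.6% higher, with a median of 0.03. Of the 26 genes called lower in the reported fit, 3 had an estimate above 0 after this normalisation and 11 with the SD covariate, none of them called. Dld and Slc16a1 were among the genes called lower in each of these fits.

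Markers of brain cell types were read between batches as well, where 40.3% of all features were called lower and 9.46% higher, with a median of -0.14. In batch 1 against batch 2, 6 of 6 neuron markers were called lower with a median difference of -0.72, 6 of 8 astrocyte markers with a median of -0.44, 6 of 7 oligodendrocyte markers with a median of -0.47, 3 of 8 microglia markers with a median of -0.13, 3 of 6 markers of endothelium and pericytes with a median of -0.20 and 3 of 5 choroid plexus markers with a median of -0.44. None was called higher. The microglia markers lay close to the share and median of all features. The part of cell composition in the batch differences of the glycolysis genes was not tested.

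The difference between isoenzymes within an array shows unequal change of the pair, not which is the more abundant. Slc2a1 minus Slc2a3 averaged -0.54 ± 0.15 on fast food, -0.53 ± 0.16 on cafeteria, -0.73 ± 0.13 on chimpanzee and -0.88 ± 0.16 on pellets (SD, n = 6 each), and on pellets it was -0.95 with the batch 1 label and -0.80 with the batch 2 label. Ldha minus Ldhb averaged between -1.52 ± 0.20 on fast food and -1.46 ± 0.18 on pellets. Aldoa minus Aldoc averaged 0.30 ± 0.03, 0.29 ± 0.13, 0.18 ± 0.09 and 0.26 ± 0.11. These pairs are given as a description, with no test.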

How the data were processed

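Total RNA from 24 right cerebral hemispheres was hybridised to whole-genome Affymetrix mouse arrays. The deposited values are log2 levels from robust multichip averaging, run by the authors in affy and including quantile normalisation. A pellet sample that the methods left out for degraded RNA is not named in the labels, and all 24 arrays were used. Arrays give no read depth, and their number limits the precision.

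Of 45101 rows, 64 controls were set aside. For each gene the single-gene probe set with the highest mean was kept, 59 probe sets being matched through older gene names, and features with a mean below 4.07, the median of all means, were left out. Diet and labelled batch were fitted with limma 3.58.1 in R 4.3.3, Benjamini-Hochberg adjusted over 13830 features, with genes called at an adjusted p below 0.05. The fit was tested on simulated data with a batch shift common to all diets. That simulation held no reversed pellet batches and no array that stood apart, so it does not cover these features of the data. The batch comparison used the 18 arrays without pellets. Genes given in full were, by rule, up to 8 called genes with the smallest p and, between diets, up to 3 in each direction with an unadjusted p below 0.05 and the same sign in both batches. Other genes and fits named were picked with their values known. The members and lists were chosen with earlier results of these data known. Each mouse is a sample, and mice may share cages, which the labels do not give. Replicate numbers did not pair arrays (same-number correlations -0.51 to 0.49, median -0.02). No arrays were copies (highest correlation 0.996). Probe sets of Aldoa, Tpi1, Pgk1, Ldhb and Slc2a3 may also detect related sequences. Slc16a7 was read from a probe set annotated under an older name. Figures were drawn with matplotlib 3.10.9.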

Additional observations from a re-analysis of the deposited data

Results flagged for a closer look

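Within single diets, 11 of 120 sets of 6 levels held an array far from the other 5. The sets share arrays, and most of these genes moved together from array to array. The count therefore cannot be set against the rate of about 1 in 20 that chance gives for independent sets. No share over all features is given for it, so it is not read as particular to these genes. Pellet batch 2 replicate 1 accounted for 10 of the 11 sets. It was far below the other pellet arrays for Dld (4.76, next lowest 7.02), Dlat (5.28, next 7.04), Slc16a7 (5.06, next 6.55), Slc16a1 (6.45, next 7.64), Pdk1 (5.69, next 6.79), Pdk3 (4.54, next 5.64), Gpd2 (6.40, next 7.48), Hk1 (8.10, next 9.05) and Pfkfb3 (3.98, next 4.72), and far above them for Hk2 (5.49, next highest 4.89). The remaining one was Pfkfb3 in cafeteria batch 1 replicate 1 (4.46, next lowest 5.13).

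The labelled batch difference on pellets differed from that on the other diets for 27 genes, by limma's test of the difference itself, as given above.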

How the results depend on the processing

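With 6 mice a diet, standard errors of differences from pellets reached 0.40 (log2) for Dld, and small changes were not detectable. For Dld between fast food and pellets, the standard error was 0.25 with pellet labels exchanged and the same mice. Leaving out each array in turn gave 0 called genes in every diet comparison, 25 to 27 for batch and 21 to 27 for the interaction. A replicate block, batch and number together, left every count at 0 between diets and at 26 for batch. Of the main counts recomputed under the other planned settings, 359 were within 1.5 times the reported count and 13 were not. The 359 include counts of 0 between diets that stayed at 0. Batch counts moved to 13 after quantile normalisation again, 11 in fast food arrays alone, 0 in chimpanzee arrays alone (smallest adjusted p of the 8 genes given in full 0.20, limma) and 2 with the array SD as a covariate. Interaction counts moved to 7 after quantile normalisation again, 15 with array weights and 0 with pellet labels exchanged. Where a count in this section has no share over all features given here or above, it is not read as particular to these genes. Against pellets, batch 2 alone gave 26 for each diet and 24 over the 4 diets, batch 1 alone gave 1 for cafeteria, and exchanged labels gave 3 for fast food, or 2 without pellet batch 2 replicate 1. The methods' two-way test, which removes features with an interaction, removed 27 of the 30 genes over the 4 diets (56.5% of all features). Of the 3 left, 0 passed at their unadjusted threshold, against 2.09% of remaining features. Between the chimpanzee diet and pellets it removed 22 genes (45.4% of all features). There 1 of 8 remaining genes passed, against 1.06% of remaining features. Every other comparison of diets gave 0 genes. With the array SD as a covariate, a fit chosen after the data were seen, the median differences from pellets were -0.10 for fast food and -0.02 for the chimpanzee diet. The causes were not tested. Dld, cafeteria against pellets, was called in opposite directions within the batches.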

Other observations

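Other genes around the pathway were read from the same fit. None of 14 further glycolytic enzymes and isoenzymes, 11 further pyruvate and lactate genes, 6 NADH shuttle genes and 9 targets of hypoxia-inducible factor outside glycolysis was called between diets. Pdk4, a pyruvate dehydrogenase kinase known for its rise in fasting and on fatty fuel, had lowest, median and highest levels of 4.54, 5.06 and 5.27 on the chimpanzee diet and 3.73, 4.34 and 4.57 on pellets. The groups overlapped. The log2 difference was 0.70 (SE 0.18, limma unadjusted p = 0.00062, adjusted p = 0.32), 0.78 within batch 1 and 0.61 within batch 2. Between cafeteria and chimpanzee diets Pdk4 differed by -0.51 (limma unadjusted p = 0.0085, adjusted p = 1.00). Within batch 1 Pdk4 averaged 4.38 on cafeteria and 5.20 on the chimpanzee diet, and within batch 2 it averaged 4.55 and 4.74. Slc16a8, a lactate transporter, averaged 4.03 on fast food and 4.05 on the chimpanzee diet, both under the filter of 4.07. On pellets Slc16a8 averaged 4.40, so these levels are at the limit of the measurement. It differed by -0.38 between fast food and pellets (limma unadjusted p = 0.0032, adjusted p = 0.23) and by -0.36 between the chimpanzee diet and pellets (limma unadjusted p = 0.0049, adjusted p = 0.45). Tigar, which lowers fructose 2,6-bisphosphate, differed by 0.36 between fast food and pellets (limma unadjusted p = 0.0076, adjusted p = 0.23), with 0.07 within batch 1 and 0.66 within batch 2. Pdp1, the phosphatase that reactivates pyruvate dehydrogenase, differed by 0.86 (limma unadjusted p = 0.0081, adjusted p = 0.23), but by -0.03 within batch 1 and 1.75 within batch 2.

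Between batches, all 6 NADH shuttle genes tested were called lower in batch 1 with a median difference of -0.56. Of the 11 pyruvate and lactate genes 6 were lower and 1 higher, with a median of -0.35. Of the 9 hypoxia-inducible factor targets 5 were lower and 1 higher, with a median of -0.23. Of the 14 further glycolytic enzymes 3 were lower and 2 higher, with a median of 0.02. Over all features 40.3% were called lower and 9.46% higher, with a median of -0.14. The further glycolytic enzymes fell below that share called lower.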
